A study of Mus musculus with 89 samples.

Results

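The kinesin superfamily was examined in the nucleus accumbens of the mouse, part of the brain's reward circuit, through its alternative exons and its read coverage. Members were all genes whose mouse symbol is Kif or Klc followed by a digit, in 2 deposited tables of exon skipping. The HSV table held 28 such genes of its 9542 genes, with 91 of its 27900 events, and the dCas9-SET2 table held 14 of its 3434 genes, with 29 of its 5608 events. All 14 genes of the dCas9-SET2 table were also in the HSV table, and the 91 events concerned 78 distinct exons. An event is an exon together with the neighbouring exons it is joined to or skipped between. A further 18 of the 46 symbols of this pattern in the name table were in neither table, among them Kif3b, Kif3c, Klc3 and Klc4, and were not analysed here. One member, Kif1bp, carries the family prefix but encodes a protein that binds kinesins and is not itself a motor.

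Kinesins are motors that use ATP to move along microtubules, most of them towards the plus ends, which in an axon point to the terminals. Each heavy chain has a motor domain that binds the microtubule and a stalk and tail that pair the chains, hold the motor inactive without cargo, and bind adaptors. In neurons they carry vesicles of synaptic proteins, mitochondria, receptors and RNA granules, and short exons in the regions outside the motor core change how a motor is regulated and what it binds. Other members remodel microtubule ends or act in mitosis, where they are used by dividing cells and little by neurons.

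The study delivered constructs to the nucleus accumbens of wild-type C57BL/6 mice of 8 weeks. In its HSV experiment a herpes simplex virus vector carried Set2, the enzyme that trimethylates lysine 36 of histone H3, a Set2 with the substitution R195G, or green fluorescent protein (GFP) as the control, with 3 RNA libraries each. In its dCas9-SET2 experiment all animals received dCas9-SET2, in which SET2 is joined to a Cas9 that cannot cut, together with an sgRNA for SRSF11, a splicing factor gene, or a non-targeting sgRNA (NT), with 16 RNA runs each under 4 sample names of 4 runs. The labels call the material brain and do not say whether libraries came from separate animals or how many cells took up a vector. The p-values of coverage thus measure the spread between libraries, which may be technical. In the main limma fit of exon inclusion, 1 spread was shared by all events and weighted by reads. The spread between an event's own libraries did not enter its p-value there. The columns of both tables carry no sample names. Comparisons were thus made between column sets, a 3-library set (set A, libraries A1, A2 and A3 in the table's order) and a 2-library set (set B, B1 and B2) in the HSV table, and a second and a first set of 16 runs in the dCas9-SET2 table, and no condition was assigned to any set. In each dCas9-SET2 set 1 run had the same counts as another run of that set in all 5608 events and was counted once, which left 15 distinct runs in the second set and 15 in the first.

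Library depth over all listed events was 7428974 to 8341849 reads in the 3-library set and 8366275 to 8638249 reads in the 2-library set, of which the kinesin events took 36922 to 44303 reads in the 3-library set and 33407 to 38491 in the 2-library set. Runs of the dCas9-SET2 table were far shallower, with 56946 to 84870 reads in the second set and 79799 to 106251 in the first. The 2 HSV sets also differed in genes other than kinesins. Of 10 listed markers of medium spiny neurons, the main neurons of this region, 9 were lower in the 3-library set (limma, adjusted p below 0.05), and their summed coverage, in CPM (reads per 1000000 after TMM scaling of the libraries), was 3571 to 3764 in the 3-library set against 9015 to 11150 in the 2-library set; Drd1 and Adora2a were among the markers not listed. All 13 listed interferon response genes were higher, at 3141 to 3572 CPM summed in set A against 89.3 to 201 in set B. Oligodendrocyte markers were higher for 6 of 8 (8393 to 11005 in set A against 6424 to 8611 in set B, where Enpp2, which did not pass, had 159 to 198 in set A, 140 in B1 and 973 in B2), microglial markers for 4 of 7 (3334 to 3399 in set A against 1297 to 2829 in set B) and astrocyte markers for 2 of 6 (3830 to 3864 in set A against 3629 to 3771 in set B), and of 5 pan-neuronal markers 2 were higher and 3 lower (7499 to 8437 in set A against 7282 to 8699 in set B). No listed marker was at 0 in any library, but some interferon response genes had few reads in set B, such as Mx1 with 1 in B1 and 7 in B2. The marker and kinesin differences lie between the same 2 sets of libraries and cannot be told apart by set. The part of the markers in the kinesin differences was not tested. In dissected tissue, fewer cells of a type and less RNA per cell cannot be told apart.

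Kinesin-1, the conventional motor, supplied the 2 members with the highest levels by their deepest events. Levels per gene were taken as reads of the deepest event per kilobase of form length, scaled like CPM. Events of one gene can differ widely in reads: in A1, Klc1 had 4025 over its deepest event, on a 174-nt exon, 1862 on a 162-nt exon and 158 on a 131-nt exon. The order of genes and the gaps between them hold for the deepest events only. Kif5a, the neuronal heavy chain, averaged 3019 on this scale over the 5 libraries, with a range of 2243 to 3429, and Klc1, a light chain that links the motor to cargo, averaged 3007 with a range of 2592 to 3414. These 2 ranges overlapped. Kif1a, the kinesin-3 that carries synaptic vesicle precursors, came next at 1207 (846 to 1478), and its highest library lay below the lowest of Kif5a and Klc1. Kif1bp at 787 (683 to 868) overlapped Kif1a in range, and Kif5c at 630, Kif1b at 624, Klc2 at 476 and Kif5b at 467 followed with ranges that overlapped their neighbours. Kif3a, a motor subunit of the heterotrimeric kinesin-2 used in axons and cilia, averaged 384, Kif21a 333, Kif2a 206, Kif1c 194 and Kif17 146. Below 100 lay Kif21b at 96.1, Kif13a at 91.7, Kif13b at 37.7, Kif16b at 30.9, Kif11 at 22.8, Kif9 at 17.8 and Kif23 at 14.3. The other 8 members, most of them mitotic motors such as Kif4, Kif14, Kif15 and Kif20b, were under the minimum mean of 20 reads per library.

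**Figure D1:**
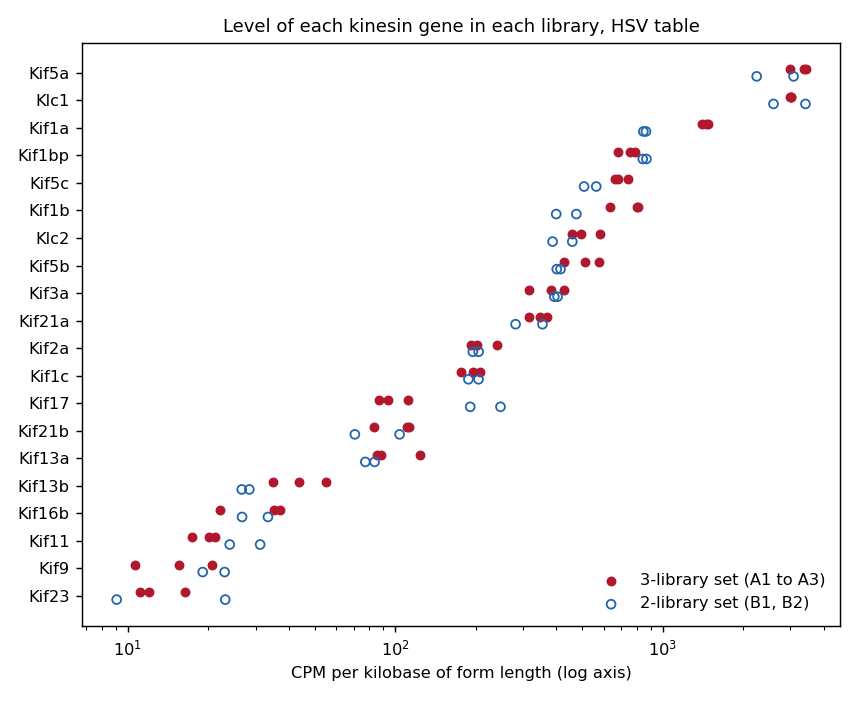
Level of the 20 kinesin genes with enough reads in each HSV library, from the deepest event of each gene, in CPM per kilobase of form length on a log axis. Filled red points are the libraries of the 3-library set and open blue points those of the 2-library set; Kif5a and Klc1 lead at a mean of 3019 and 3007, and Kif23 is lowest at 14.3.

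Coverage differed between the HSV sets for 4 of the 20 tested kinesin genes (20%), 3 higher and 1 lower in the 3-library set, against 22.6% of 8201 genes in all. The kinesin share was thus near the background and is not a result about the family; higher calls made up 13.1% and lower calls 9.55% of all genes. The median kinesin difference was 0.11 on the log2 scale, with 12 of 20 above 0, beside a median near 0 and 49.7% above 0 over all genes. All coverage differences are of log2 CPM with 0.5 added to each count, from limma with Benjamini-Hochberg adjustment over all genes, and understate changes of genes with few reads.

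Both large kinesin-3 motors of axonal transport were higher in the 3-library set. Kif1a had 472, 446 and 462 CPM in the 3-library set, against 276 and 269 in the 2-library set, and Kif1b, which carries mitochondria or synaptic vesicle precursors depending on its tail, had 315, 249 and 312 in set A against 152 and 182 in set B. For both genes each library of the 3-library set lay above both libraries of the 2-library set. The difference was 0.75 ± 0.08 (SE) for Kif1a, with an adjusted p of 2.84e-05 in limma, and 0.80 ± 0.12 for Kif1b, with 0.00039. The difference was also seen exon by exon, as the log2 ratio of read totals was 0.55 to 0.88 over the 6 events of Kif1a and 0.39 to 0.86 over the 6 of Kif1b, which share libraries and partly reads. The other tested kinesin-3 genes did not pass: Kif13b, Kif13a, Kif1c and Kif16b had differences of 0.65, 0.35, -0.02 and -0.02, with adjusted p-values of 0.224 to 0.972 in limma.

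Kif17, a homodimeric kinesin-2 known in dendrites for moving vesicles with an NMDA receptor subunit, went the other way. It had 64.4, 54.3 and 50.8 CPM in the 3-library set, against 143 and 100 in the 2-library set, with no overlap. The difference was -1.09 ± 0.17 (SE), a ratio of 0.47, with an adjusted p of 0.000433 in limma. Read totals over all 7 of its events were lower, by log2 ratios of -0.94 to -1.66. Kif3a, the other kinesin-2 listed, had 87.4, 105 and 117 CPM in set A against 112 and 108 in set B, and its difference of -0.10 did not pass. The lower Kif17 coverage stood in the same libraries as the lower medium spiny neuron markers given above, and their part in it was not tested.

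Of the 5 kinesin-1 genes, Kif5c passed, and all 5 estimates were above 0. Kif5c, a heavy chain enriched in neurons, had 163, 159 and 178 CPM in the 3-library set, against 136 and 122 in the 2-library set, a difference of 0.37 ± 0.11 (SE) with an adjusted p of 0.0267 in limma. That call was lost without B2 (0.0913), A1 (0.0744) or A3 (0.119). Kif5a had 858, 759 and 874 CPM in set A against 785 and 572 in set B, so the sets overlapped, and its difference of 0.31 had an adjusted p of 0.0829 in limma. It passed with scaling to the total of listed reads (0.0453), or when B1 was left out (4.35e-05). Klc1 was level between the sets in its mean, with 977, 966 and 980 in set A against 1105 and 840 in set B, and a difference of 0.02 ± 0.10 (SE) whose sign changed when B2, A1 or A3 was left out (-0.183, -0.0025 and -0.00526). Klc2, the other light chain, had 247, 210 and 194 in set A against 195.4 and 164 CPM in set B, with a difference of 0.27 and an adjusted p of 0.135 in limma, which became 0.0265 without B1. The ubiquitous heavy chain Kif5b had a difference of 0.30 with an adjusted p of 0.128. Kif1bp, the kinesin binding protein, had 201, 182 and 209 CPM in set A against 231 and 223 in set B, which did not overlap, with a difference of -0.20 ± 0.10 (SE) and an adjusted p of 0.173 in limma.

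**Figure D2:**
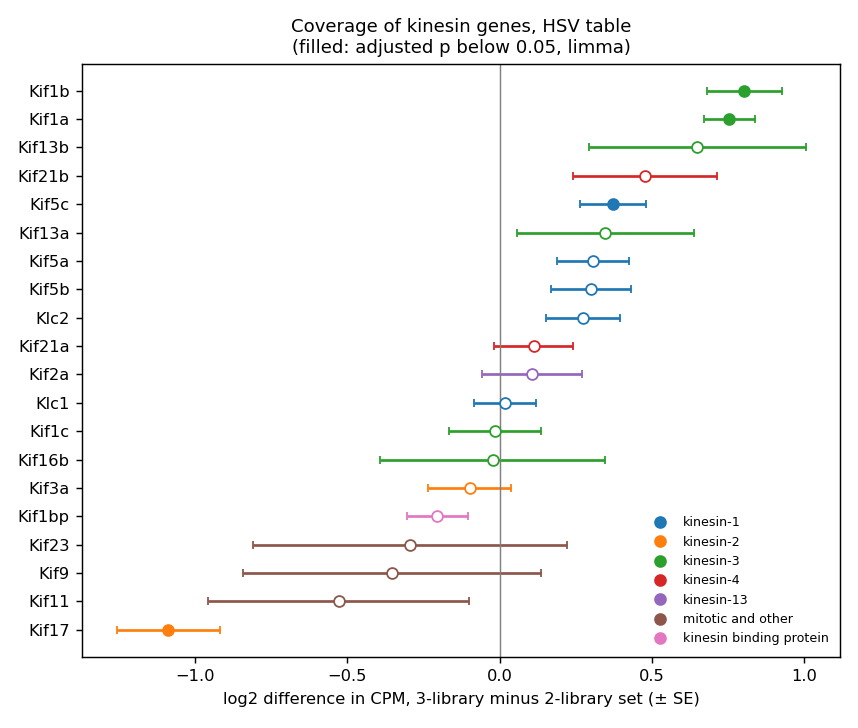
Difference in coverage of the 20 tested kinesin genes between the HSV sets, as log2 CPM of the 3-library minus the 2-library set, with the standard error of limma as bars and the kinesin class as colour. Filled points passed an adjusted p of 0.05: Kif1b, Kif1a and Kif5c lie right of 0 and Kif17 lies left of it at -1.09.

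Among the 91 kinesin events of the HSV table, 45 events in 12 genes passed the minimum of 20 reads per library on average, with 10 or more of the less common form in all, and were tested. The remaining 46 included 37 with a mean inclusion level above 0.9, so most had too few skipping reads; all events of Kif5a, Kif5b, Kif5c and Klc2 were among these 46. The inclusion level is the fraction of transcripts that hold the exon, from reads of each form divided by its length. Most kinesin exons tested had a length that keeps the reading frame. Lengths were divisible by 3 for 39 of 45 events (86.7%), beside 52.8% of the 7754 tested events of all genes, and 9 events (20%) concerned exons of 27 nt or less, beside 5.21%. Between inclusion levels of 0.1 and 0.9 there were 29 events on 23 distinct exons of 10 genes, of which 20 exons had a length divisible by 3 and 6 were of 27 nt or less. These are descriptions, since events of one gene share exons and reads.

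Inclusion differed between the sets for 3 of the 45 tested kinesin events (6.67%), 2 higher and 1 lower in the 3-library set, against 3.73% of all 7754 tested events, of which 1.70% were higher and 2.02% lower. With 3 calls the difference between these shares rests on few events, and it was not tested. At an unadjusted p below 0.05 there were 7 kinesin events, against 12.9% of all events. The authors' deposited FDR was below 0.05 for 5 of the 45, which is 11.1%, beside 12.6% of all tested events. Inclusion levels of the sets did not overlap in 10 kinesin events, or 22.2%, beside 27.8% of all. With weights from each event's pooled inclusion, an alternative added after seeing the data, limma called 2 of the 45, beside 2.04% of all. Without weights it called 0 kinesin events and 0 events in all, with 4 and 798 at an unadjusted p below 0.05. Estimates were above 0 in 31 of 45 kinesin events, with a median of 0.20 on the natural log scale of the odds of inclusion, beside 46.9% and a median of -0.05 over all events. The 45 events lie in 12 genes and many share reads, so they are not independent, and a shift of the family was not tested.

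**Figure D3:**
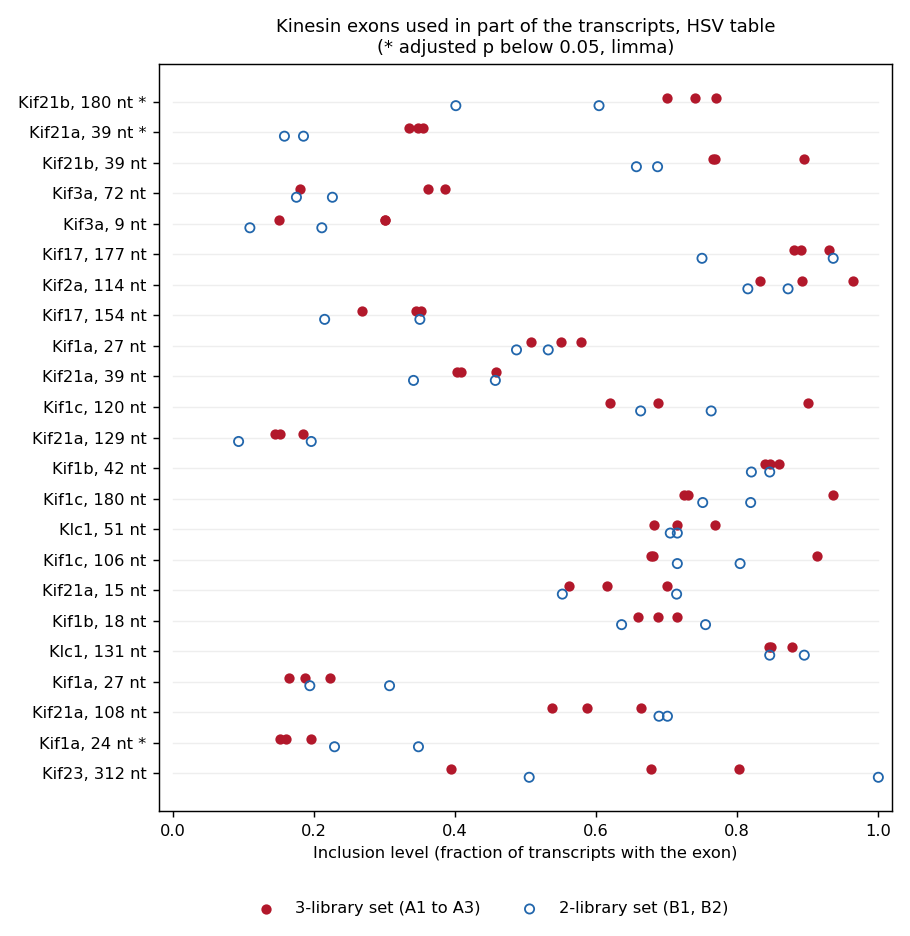
Inclusion level, as a fraction of transcripts, of the 23 kinesin exons with a mean level between 0.1 and 0.9, taking the deepest event of each exon, with filled red points for the 3-library set and open blue points for the 2-library set. Exons run from the most positive difference at the top to the most negative at the bottom. The sets are apart without overlap in 5 of the 23 exons, beside 27.8% of all 7754 tested events of any inclusion level. An asterisk marks the 3 exons with an adjusted p below 0.05 in limma.

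The lower of the 3 calls was a microexon of Kif1a of 24 nt, at chromosome 1, positions 94923409 to 94923432 on the minus strand in the table's coordinates, whose build is not stated for the table. Its inclusion level was 0.195, 0.152 and 0.160 in the 3-library set, against 0.348 and 0.229 in the 2-library set, from 518 to 997 reads per library. All 3 values lay below both of the others, and the mean was 0.169 ± 0.023 in set A (SD, n = 3) against 0.289 ± 0.084 in set B (SD, n = 2). The estimate was -0.69 ± 0.12 (SE) on the log odds scale, with an adjusted p of 4.94e-07 in limma and 0.00291 in the authors' deposited table. In limma the adjusted p was 0.0305 with weights from the pooled inclusion and 0.606 without weights. Skipping reads stood at 189, 181 and 173 CPM in the 3-library set, against 85.9 and 94.4 in the 2-library set. Inclusion reads stood at 53.2, 37.7 and 38.2 in set A against 53.0 and 32.6 in set B, with overlap. These CPM are scaled to the library and also hold the higher coverage of Kif1a as a whole. They are not changes of each form relative to the gene. Library B1 weighed heavily: without it the estimate was -0.36, with an adjusted p of 0.36 in limma.

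Kif1a had 2 further microexons, both of 27 nt. The exon at positions 94931123 to 94931149 lies between the same neighbouring exons as the 24-nt exon and shares its skipping reads, so the events are not independent. Its levels were 0.187, 0.164 and 0.223 in the 3-library set, against 0.307 and 0.194 in the 2-library set, with an adjusted p of 0.0557 in limma. The exon that starts at position 94962129 was included in about as many transcripts as skipped it, at 0.550, 0.508 and 0.578 in set A against 0.532 and 0.487 in set B, with an adjusted p of 0.561. The remaining tested event of Kif1a, on a 78-nt exon, was included at 0.987 or more in all 5 libraries.

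Kif21a, a kinesin-4 that restrains microtubule growth in axons and whose human gene is mutated in an inherited eye movement disorder, held 1 of the higher calls. An exon of 39 nt at chromosome 15, positions 90806902 to 90806940, was included at 0.334, 0.347 and 0.354 in the 3-library set, against 0.158 and 0.185 in the 2-library set. The libraries of each set were close together and the sets far apart, with means of 0.345 ± 0.010 in set A (SD, n = 3) and 0.172 ± 0.019 in set B (SD, n = 2). The estimate was 0.93 ± 0.20 (SE), with an adjusted p of 0.000239 in limma and 2.42e-06 in the authors' deposited table. In limma the adjusted p was 0.0103 with weights from the pooled inclusion and 0.448 without weights. The call held without A1, A2 or A3, with an adjusted p of at most 0.00204 in limma. With 1 library left in set B, the estimate was 0.84 (without B1) and 1.03 (without B2). Here the inclusion reads differed, with 21.4, 29.1 and 25.1 CPM in set A against 10.4 and 12.3 in set B, while skipping reads were 33.8, 43.6 and 36.3 in set A against 43.9 and 42.9 in set B. Coverage of Kif21a as a whole had a difference of 0.11 and an adjusted p of 0.585.

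The 18 events of Kif21a, 13 of them tested, form the most branched pattern of the family. A second exon of 39 nt at position 90779437, one of 129 nt at 90781677 and one of 108 nt at 90783142 are joined in many combinations, so their events share reads. The 108-nt exon, between neighbours of 129 and 215 nt, was included at 0.894, 0.949 and 0.845 in the 3-library set, against 1 and 1 in the 2-library set. The authors' deposited table gave it an FDR of 0.000389, whereas limma gave an adjusted p of 0.403. Its skipping reads were 1.9, 0.5 and 2.2 CPM in set A against 0 and 0 in set B, so the call rests on few reads. Between neighbours of 137 and 215 nt the same exon stood at 0.663, 0.538 and 0.587 in set A against 0.689 and 0.701 in set B, again below and without overlap, with an adjusted p of 0.427. Between neighbours of 39 and 215 nt the sets overlapped, at 0.470, 0.317 and 0.341 in set A against 0.489 and 0.376 in set B, and between neighbours of 137 and 55 nt, an event with too few skipping reads to be tested, the exon stood at 1, 1 and 1 in set A against 1 and 0.856 in set B. A 21-nt exon was included at 0.898 to 0.936 in all libraries, and a 15-nt exon at 0.552 to 0.714 with overlap of the sets.

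Kif21b, the close relative of Kif21a found more in dendrites, was the other higher call. Its exon of 180 nt at chromosome 1, positions 138070049 to 138070228, was included at 0.740, 0.700 and 0.770 in the 3-library set, against 0.604 and 0.401 in the 2-library set. All values of the 3-library set were higher, but the 2 libraries of the other set differed between themselves by more than the 3 did. The estimate was 1.12 ± 0.33 (SE), with an adjusted p of 0.0207 in limma and 0.024 in the authors' deposited table. Skipping reads were few, at 4.4, 3.7 and 3.8 CPM in set A against 4.2 and 9.3 in set B, beside inclusion reads of 27.4, 19.3 and 28.1 in set A against 14.1 and 13.7 in set B. The call was lost without B2 (adjusted p 0.671), A1 (0.0985) or A3 (0.111), and with weights from the pooled inclusion (0.186). The 39-nt exon of Kif21b was also higher without overlap, at 0.768, 0.894 and 0.765 in set A against 0.657 and 0.687 in set B, and did not pass, with an adjusted p of 0.527 in limma.

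**Figure D4:**
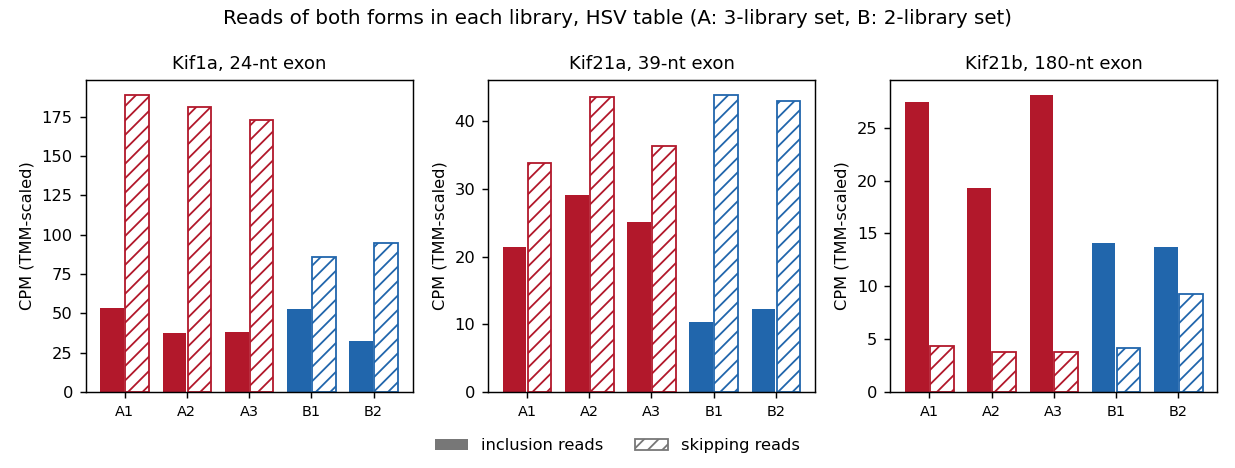
Reads of both forms of the 3 called kinesin exons in each HSV library, in CPM, with filled bars for inclusion and hatched bars for skipping, red for the 3-library set and blue for the 2-library set. Skipping reads of the Kif1a 24-nt exon are 173 to 189 in the 3-library set against 85.9 and 94.4 in the 2-library set, and inclusion reads of the Kif21a 39-nt exon are 21.4 to 29.1 in the 3-library set against 10.4 and 12.3 in the 2-library set.

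Kif3a was the remaining gene with a call in the authors' deposited table alone. Its 9-nt exon at chromosome 11, positions 53404219 to 53404227, has the length of 3 codons, and between neighbours of 72 and 157 nt it was included at 0.876, 0.733 and 0.788 in the 3-library set, against 0.560 and 0.632 in the 2-library set. The FDR of the authors' deposited table was 0.0159, and limma gave an adjusted p of 0.151. The 72-nt exon beside it, when joined to the 9-nt exon, was at 0.824, 0.772 and 0.752 in set A against 0.691 and 0.589 in set B, again without overlap, with an adjusted p of 0.322. In the other 2 tested events, both between neighbours of 96 and 157 nt, the sets overlapped: the 9-nt exon stood at 0.15, 0.301 and 0.301 in set A against 0.109 and 0.211 in set B, and the 72-nt exon at 0.180, 0.386 and 0.362 in set A against 0.175 and 0.226 in set B. The estimates of the 4 tested Kif3a events were all above 0, at 0.57 to 0.92, but these events share reads and none passed in limma. Inclusion reads of the 9-nt event were 19.9, 17.9 and 21.6 CPM in set A against 6.7 and 9.8 in set B, and skipping reads 2.7, 6.2 and 5.5 in set A against 4.9 and 5.4 in set B.

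The other tested members had no called event. Kif1b had 5 tested events, among them an 18-nt exon at 0.714, 0.659 and 0.687 in the 3-library set, against 0.755 and 0.636 in the 2-library set, and a 27-nt exon used in almost no transcript, at 0.002 to 0.012 in all libraries. Kif17 had 4, and its 154-nt exon was included at 0.352, 0.344 and 0.268 in set A against 0.215 and 0.350 in set B, with overlap of the sets although the gene's coverage differed. Klc1 used its 51-nt exon at 0.714, 0.682 and 0.769 in set A against 0.705 and 0.715 in set B, from a mean of 722 reads, with an estimate of 0.04 ± 0.12 (SE). The 3 tested events of Kif1bp were at 0.960 or more in every library. Kif1c, chosen for mention after its values were seen, had 3 overlapping events in which A3 stood apart, at 0.936, 0.9 and 0.913, while A1 and A2 spanned 0.620 to 0.730 and the 2-library set 0.663 to 0.819. Kif2a, a microtubule depolymerase of kinesin-13, Kif13a and the mitotic Kif23 had 4 tested events between them, with adjusted p-values of 0.514 to 0.939.

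In the dCas9-SET2 table none of the 29 kinesin events had an adjusted p of the authors below 0.05, against 4.96% of 5287 events with an adjusted p. The authors' deposited table gives no unadjusted p. Below 0.1 there were 3 kinesin events, against 8.85% of all, which for 29 events is near the background. Reads per event were 26 to 2838 in total over the 30 distinct runs, with a median of 252. The authors' adjusted p and dPSI, a difference of inclusion whose formula the sources do not give, are printed as deposited. The dPSI was above 0 in 17 of 29 kinesin events, beside 43.3% of all 5608. The header does not state its direction, and its sign was that of the second minus the first set, from pooled reads, in 81.9% of events with 20 or more reads per run. The level from reads pooled over a set was higher in the second set for 14 events, and it had the sign of the dPSI in 22 of 29.

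The 3 kinesin events below 0.1, chosen after their values were seen, lay in Kif17, Kif21a and Kif1b. The Kif17 exon of 121 nt had a pooled level of 0.970 in the second set and 0.897 in the first, with a median over runs of 1 in both sets, and a dPSI of 0.0953 with an adjusted p of 0.0542 in the authors' deposited table. The Kif21a exon of 39 nt, between the same neighbour lengths of 91 and 204 nt as the called one of the HSV table, stood at 0.296 in the second set and 0.239 in the first, from 260 reads in the second set and 447 in the first, with single runs from 0 to 0.557 in the second and from 0.035 to 0.489 in the first. The median over runs of this Kif21a exon went the other way, at 0.242 in the second set and 0.251 in the first. The dPSI of the exon was 0.0785 with an adjusted p of 0.0725 in the authors' deposited table. The 18-nt exon of Kif1b stood at 0.758 in the second set and 0.706 in the first, with run medians of 0.809 in the second and 0.67 in the first. It had a dPSI of 0.146 and an adjusted p of 0.078 in that table. Runs of both sets overlapped in all 3 exons.

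The Kif1a 24-nt exon was included at 0.232 in the second set and 0.279 in the first, from 620 reads in the second set and 933 in the first, with a dPSI of -0.04 and an adjusted p of 0.482 in the authors' deposited table. Scaled to the listed reads of a run or set, the Kif17 event had 281 CPM in the second set, with runs from 118 to 487 and a run median of 239.8, and 175 CPM in the first, with runs from 80.5 to 299 and a run median of 178. Kif1a was not of one direction, since its 27-nt event of neighbours 134 and 143 nt had 985 CPM in the second set and 1314 in the first, and its 70-nt event had 1261 in the second set and 1049 in the first. Runs overlapped in each of these, and no test was made because runs of one sample name are not independent replicates.

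Matched by gene and by the lengths of the exon and its neighbours, 24 kinesin exons of 12 genes stood in both tables, and 5 events of the dCas9-SET2 table had no match. For 16 of the 24, both pooled levels of the dCas9-SET2 table lay inside the range of the 5 HSV libraries, and the median absolute difference of the mean levels was 0.0400. The count of 16 depends on how wide the HSV range is: it includes 2 exons of Kif23, where that range ran from 0 to 1 on 17 reads (42 nt) and from 0.394 to 1 on 100 reads (312 nt). The Klc1 exon of 51 nt stood at 0.751 in the second set and 0.751 in the first, against 0.682 to 0.769 over the HSV libraries. In 2 exons both sets lay above the HSV range and in 2 below it. The Kif1a exon of 27 nt between neighbours of 134 and 143 nt stood at 0.723 in the second set and 0.744 in the first, against 0.487 to 0.578 over the HSV libraries, and had 2838 reads over the runs. The tables were made separately, so levels are set side by side here as a description.

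**Figure D5:**
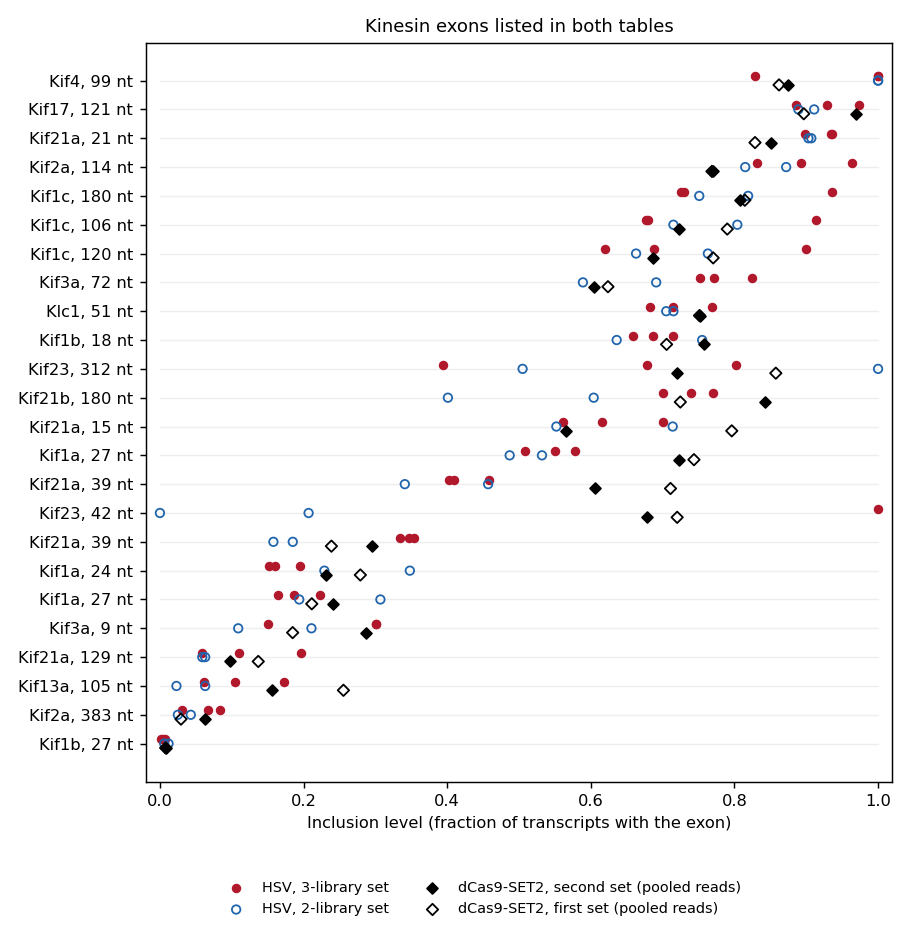
Inclusion level, as a fraction of transcripts, of the 24 kinesin exons listed in both tables, ordered by the mean of the HSV libraries. Circles are single HSV libraries (filled red for the 3-library set, open blue for the 2-library set), and diamonds are pooled reads of the dCas9-SET2 table (filled for the second set, open for the first); both diamonds lie inside the HSV range in 16 of 24 exons.

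Genes that work with kinesins as adaptors, cargo receptors or regulators were also counted, from a list of 44, of which 40 were in the HSV table. The list also held the kinesin motors Kifc1, Kifc2, Kifc3 and Cenpe, whose symbols fall outside the pattern of the members. Coverage passed for 9 of 38 tested (23.7%), 7 higher and 2 lower in the 3-library set, near the 22.6% of all genes. The highest estimate among them was that of Hap1, which links huntingtin to transport, with 580, 731 and 634 CPM in the 3-library set, against 154 and 228 in the 2-library set, a difference of 1.78 ± 0.14 (SE) and an adjusted p of 1.98e-06 in limma. Mapk8ip2, a scaffold of the JIP family that binds kinesin light chains, had 180, 194 and 161 in set A against 69.6 and 76.5 in set B, a difference of 1.28 with 6.84e-06, and the calsyntenin Clstn3, of a family of light chain receptors, had 425, 425 and 411 in set A against 243 and 224 in set B, a difference of 0.85. Ppfia4, a liprin, passed at 0.67. Apba1, Clstn1 and Clstn2 also passed, at 0.56, 0.34 and 1.01, and each lost its call when 1 library was left out: Apba1 without B2 (adjusted p 0.152), A1 (0.131), A2 (0.051) or A3 (0.0899), Clstn1 without B2 (0.0742), A1 (0.0627) or A3 (0.0753), and Clstn2 without B2 (0.110) or A1 (0.0903). Lower were Dclk1, a doublecortin family protein that affects kinesin-3 on dendritic microtubules, with 318, 308 and 302 in set A against 702 and 496 in set B and a difference of -0.93, and Lin7b, of the protein complex that joins Kif17 to its receptor cargo, at -0.52. The call of Lin7b was lost without B1 (0.149) or A3 (0.0509).

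Inclusion passed for 5 of 62 tested events of this list (8.06%), 2 higher and 3 lower, beside the 3.73% of all events. The difference between these shares rests on 5 calls and was not tested. The list was chosen with earlier results of these data known, so its share is not a result about these genes. Spag9, the adaptor JIP4 that binds kinesin light chains, had a 39-nt exon at 0.496, 0.413 and 0.429 in the 3-library set, against 0.249 and 0.260 in the 2-library set, an estimate of 0.86 ± 0.14 (SE) with an adjusted p of 4.48e-08 in limma. Mapk8ip3, its close relative JIP3, had a 24-nt exon at 0.201, 0.208 and 0.186 in set A against 0.092 and 0.081 in set B, with an estimate of 0.95 ± 0.23 (SE) and an adjusted p of 0.00208 in limma. In both genes the libraries of a set were close together and the sets apart. The Mapk8ip3 call was lost without B1 (0.0509) or B2 (0.109), and that of Spag9 held without any 1 of the 5 libraries. Grip1, a receptor scaffold that binds Kif5 heavy chains, had a 156-nt exon at 0.384, 0.384 and 0.282 in set A against 0.809 and 0.818 in set B, with an estimate of -1.995 ± 0.45 (SE) and an adjusted p of 0.000578 in limma, which became 0.0685 without B1. The 111-nt exon of Ppfia4 and the 57-nt exon of Map7d2, a protein that recruits kinesin-1 to microtubules, were the other lower calls, at adjusted p-values of 0.0169 and 0.0231, and both were lost when 1 library was left out. For Ppfia4 these were B1 (0.512), A2 (0.135) and A3 (0.0623), and for Map7d2 B2 (0.547), A1 (0.0751), A2 (0.0625) and A3 (0.0507). With weights from the pooled inclusion, Ppfia4 (0.152) and Map7d2 (0.101) did not pass, while Spag9 (0.0019), Mapk8ip3 (0.014) and Grip1 (0.00463) did.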

How the data were processed

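Both tables were deposited by the authors with inclusion and skipping counts joined by commas within cells, 1 cell per set. They name no libraries, so 37 columns of values carry no sample name (5 in the HSV table and 32 in the dCas9-SET2 table). The submitters' processing notes name Bowtie2, STAR 2.4.1d and 2 builds, mm10 and mm9, without saying what each was for, and the event caller is named in none of the sources. Per the file headers, the HSV table holds a p-value and FDR per event and a difference score of inclusion, and the dCas9-SET2 table an adjusted p-value and a dPSI score, all made by the authors with tests that the sources do not name. Differences in the HSV table are printed as 3-library minus 2-library set. Inclusion levels were recomputed from the counts, with form lengths of 150 nt (HSV) and 99 nt (dCas9-SET2) for skipping, and 100% matched the deposited levels within 0.001. The median event had 102 reads per library (HSV) and 4.8 reads per run (dCas9-SET2). Runs of the dCas9-SET2 table with identical counts in every event were counted once.

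For inclusion, the natural log of the odds (0.5 added to each length-scaled count) entered limma 3.58.1 (R 4.3.3) for all 7754 HSV events that averaged 20 reads per library and held 10 of the less common form, weighted by read support, which left 1 spread shared by all events. Coverage was the reads of the deepest event of each gene with a mean of 20 reads, with TMM scaling (trims of 0.3 and 0.05), as log2 values in limma with a trended spread. Tests were two-sided with Benjamini-Hochberg adjustment over the whole table and calls at 0.05. Both fits were tested on simulated data. Where the simulated spread between libraries did not shrink with reads, the inclusion fit made false calls and one with weights from pooled inclusion made none, and pooled weights were therefore added as an alternative after seeing the data. With a library of the 2-library set left out, the lone one is assumed to vary like the others. The deepest 6 members, members with a call in limma or in the authors' deposited tables and members with called coverage are named with all libraries; the rest are given by counts and ranges. The members and lists were chosen with earlier results of these data known. Samples of ChIP, input and CUT&RUN were not used here, and no exon sequence is printed because no genome was used here.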

Additional observations from a re-analysis of the deposited data

How the results depend on the processing

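Without weights limma called 0 kinesin events and 0 events in all, with 4 and 798 at an unadjusted p below 0.05, against 3 kinesin events and 289 in all as reported, and the authors' deposited FDR called 5 and 974. Weights from pooled inclusion, added after seeing the data, gave 2 kinesin events and 158 in all. Leaving out a library gave 2 to 3 kinesin events and 145 to 225 in all, and 3 to 6 kinesin genes by coverage (4 as reported) with 1362 to 2099 in all (1854 as reported); 145 was without B1. The kinesin events called were not the same in each fit with a library left out. Without A3, 1 was higher and 2 were lower, against 2 higher and 1 lower as reported, and the Kif21b 180-nt exon was lost without A1 or A3. The Kif1a 24-nt exon had an adjusted p of 0.606 without weights and 0.0305 with pooled weights, the Kif21a 39-nt exon 0.448 and 0.0103, and the Kif21b 180-nt exon 0.483 and 0.186, and 0.051 with no filter on reads. Coverage of Kif1a, Kif1b and Kif17 passed in all alternatives run, with an adjusted p of at most 0.000652, 0.00573 and 0.00299. The estimate of Klc1 (0.016 as reported) ran from -0.183 to 0.214 when 1 library was left out, and was below 0 without B2 (-0.183), A1 (-0.0025) or A3 (-0.00526). Of the 262 events below 0.05 in the dCas9-SET2 table as a whole, 150 had a mean of 5 or more reads per run, and 30 were below 0.01; none was a kinesin event under either. Pooling all 16 listed runs of each dCas9-SET2 set, added after seeing the data, moved the difference of pooled levels by at most 0.0657 (median 0.0108) over the 29 kinesin events and its sign was not the same in 3, among them the Klc1 exon, whose difference is 0 over the distinct runs. The cause of these changes was not tested, apart from the smaller number of events that the read minimum and the stricter threshold allow. No paired analysis was possible because the columns carry no replicate numbers. With few reads of the rarer form and 5 libraries, an event not called may still differ.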
